A study of Mus musculus with 8 samples.

Results

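The genes described here encode carriers that move amino acids and related small molecules across membranes. They are the rows of the count table whose mouse symbol starts with Slc1a, Slc3a, Slc6a, Slc7a, Slc36a, Slc38a or Slc43a, without Slc7a2 and Slc7a11. Of 55414 rows, 65 matched, and the 38 with at least 10 counts over all 8 libraries are the members. Slc6a14 (10 counts), Slc7a15 (13) and Slc36a3 (17) lie just inside that minimum, and Slc7a13 (7), Slc6a16 (6) and Slc6a19 (4) just outside it. Among the 27 rows outside it, 10 had no count in any library.

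The mice underwent either caecal ligation and puncture (CLP), a sepsis model in which gut content leaks into the abdomen, or Sham surgery as the control, and livers were collected 2 h later. All animals were wild-type C57BL/6J mice on chow, and both groups therefore share genotype, tissue, time point and sorting. Kupffer cells, the macrophages that live in the liver sinusoids, were isolated by FACS, and RNA of 4 libraries per group was sequenced. Whether a library is 1 animal or a pool, and the age, sex and sorting gate, were not stated in the labels. A p-value here therefore speaks of the variation among these libraries, which may be technical.

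The libraries held 23311897 to 28724875 counts over genes, with no detectable difference in totals between CLP and Sham (two-sided exact permutation p = 0.743). Values are CPM, that is counts relative to library size, scaled by trimmed mean of M-values (TMM), given for replicates 1 to 4 in that order, and errors are SD with n = 4 unless SE is stated. Summed over 11 Kupffer cell markers, levels ranged over 23639 to 29683 CPM after CLP and 17345 to 22759.8 CPM in Sham, with Clec4f the most abundant. Neutrophil and platelet markers (12 and 8 genes) summed to 239 to 576 CPM after CLP and 101 to 138 CPM in Sham for neutrophils and 124 to 199 CPM after CLP and 15.5 to 28.3 CPM in Sham for platelets, and all 8 and 7 tested genes of these lists rose. B cell markers summed to 22.7 to 36 CPM after CLP and 9.09 to 14.4 CPM in Sham, with 7 of 8 tested genes higher and 1 lower. T and NK cell markers summed to 4.29 to 7.61 CPM after CLP and 0.703 to 1.55 CPM in Sham, with 9 of 10 genes too low to test. Stellate cell markers summed to 71.9 to 104 CPM after CLP and 55.7 to 68.1 CPM in Sham, with 3 of 9 higher and 1 lower. Sinusoidal endothelial markers summed to 584 to 611 CPM after CLP and 531 to 642 CPM in Sham, with 4 of 10 higher and 0 lower. Monocyte markers summed to 405 to 579 CPM after CLP and 301 to 442 CPM in Sham, with 2 of 6 tested genes higher and 0 lower. Over all genes tested, 24.9% were higher and 29.5% lower. The part of these cell types in the results below was not tested except where a value is given. Replicate 1 of CLP was the least like its group, with a chi-square per degree of freedom of 79.1 to 122 against the other 3 and 29 to 42.4 among those 3. Beside members whose call changes without it, the value without it is given.

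Amino acid carriers fall into families with distinct coupling. SLC7 light chains such as Slc7a8 reach the plasma membrane as a disulfide-linked pair with a heavy chain, Slc3a2 (CD98) or Slc3a1, and exchange 1 amino acid for another. SLC1, SLC6 and SLC38 carriers use the sodium gradient to concentrate glutamate, glutamine, taurine, creatine and other solutes. Slc36a1 of the SLC36 family uses protons, and SLC43 carriers facilitate diffusion of large neutral amino acids. Some members act on lysosomes, where amino acids are released from digested protein and sensed by the mTORC1 pathway. In activated macrophages amino acid uptake is known to feed protein, glutathione, nitric oxide and polyamine synthesis.

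CLP was followed by higher transcript levels of many of these carriers, and by lower levels of 5, among them the abundant Slc43a2 and the lysosomal Slc36a1 and Slc38a9. The largest changes among members above 10 CPM were the rise of the cationic amino acid carrier Slc7a1, from 13.2 ± 2.47 to 76.4 ± 14.7 CPM, and the fall of the proton-coupled carrier Slc36a1, from 68.5 ± 14 to 17.4 ± 4.62 CPM. The CD98 heavy chain Slc3a2 and its light chains Slc7a5, Slc7a6, Slc7a7 and Slc7a8 rose, though with total-count scaling of these only Slc3a2 and Slc7a7 passed. Of the 38 members, 34 passed the filter on low counts and were tested with edgeR's quasi-likelihood test across 14655 genes, and 22 passed an adjusted p of 0.05 (Benjamini-Hochberg). These were 17 higher and 5 lower in CLP.

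Over all genes tested, 54.3% passed, 24.9% higher and 29.5% lower. Of the 34 tested members 64.7% were called, 17 of them higher and 14.7% of the 34 lower. Their median log2 fold change was 0.53, beside -0.04 over all genes tested. Calls of at least 2-fold numbered 12 (35.3% of tested members, beside 28.7% of all genes), with 9 higher and 3 lower. In 16 tested members (47.1%) no CLP library lay within the range of Sham or the reverse, close to the 49.5% of all genes. Among the 17 higher members, 5 (Slc1a1, Slc6a8, Slc6a9, Slc6a4 and Slc43a1) averaged under 1 CPM in Sham. Of these, Slc1a1, Slc6a4 and Slc43a1 could pass the filter mainly by being higher in CLP. Slc6a8 and Slc6a9, with 15 to 25 and 17 to 26 counts per Sham library, could pass it on Sham alone. Without CLP replicate 1, 18 members were higher and 6 lower, with 16 of the 17 and all 5 of the main calls kept.

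The direction of the smaller changes rests on the scaling. With total counts in place of TMM, the median log2 fold change of all genes moved by -0.55 and 17.1% of calls were upward in place of 45.8%. Then 8 members were higher (Slc1a1, Slc1a5, Slc38a1, Slc6a8, Slc6a4, Slc7a1, Slc3a2 and Slc7a7) and 7 lower, the 5 of the main result and Slc1a3 and Slc38a10. In bulk libraries fewer cells of a type and less RNA per cell cannot be told apart, and this holds for each level below.

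**Figure D1:**
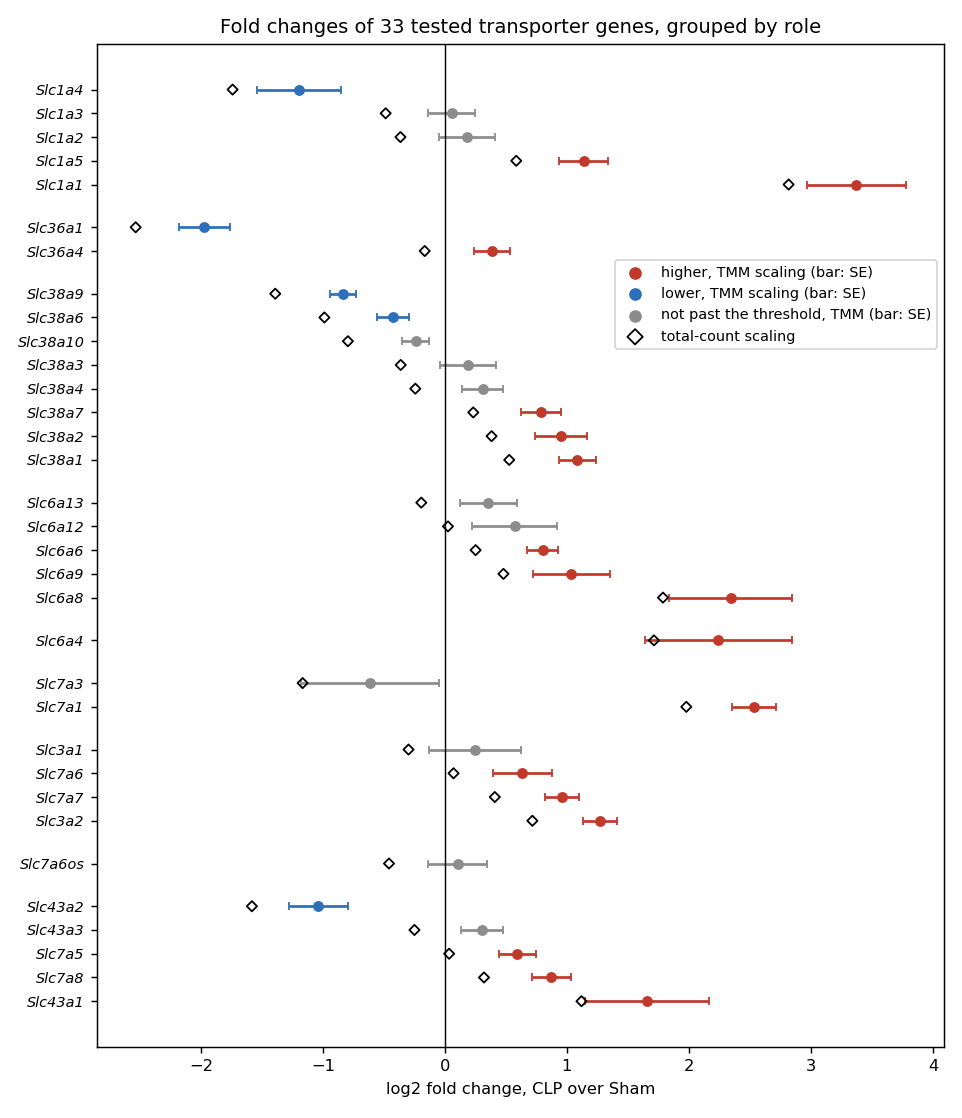
Log2 fold change of 33 of the 34 tested members (CLP over Sham, x axis) in blocks by carrier role. Filled points with SE bars use TMM scaling and open diamonds total-count scaling; the diamonds lie about 0.55 to the left, so Slc7a1 and Slc3a2 stay right of 0 and Slc36a4 crosses it.

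Promoter sequences are shown for 4 members: Slc36a1 with the largest fall, Slc7a1 with the largest rise above 10 CPM, the abundant light chain Slc7a7 and the lower neutral carrier Slc1a4. They come from RefSeq (GRCm38.p6, which is not the mm39 build of the counts), run from 170 bases before to 5 bases after an annotated start, and are written in the direction of the gene. Capitals mark matches on either strand to motifs of factors active in inflammatory, growth and amino acid responses: NF-kB (GGGA, any 4 bases, then CC), the ATF4 element CARE (TGATGNAA), the E-box (CACGTG) and AP-1 (TGANTCA). Where a gene has several starts (5 for Slc7a7, 2 for Slc7a1), the one with most matches is shown, and no matches overlapped.
Slc36a1 (chr11:55204170-55204344, plus strand): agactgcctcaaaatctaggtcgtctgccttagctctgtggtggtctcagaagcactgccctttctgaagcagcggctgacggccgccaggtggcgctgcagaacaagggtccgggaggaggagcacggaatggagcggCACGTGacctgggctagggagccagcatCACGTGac
Slc7a1 (chr5:148399900-148400074, minus strand): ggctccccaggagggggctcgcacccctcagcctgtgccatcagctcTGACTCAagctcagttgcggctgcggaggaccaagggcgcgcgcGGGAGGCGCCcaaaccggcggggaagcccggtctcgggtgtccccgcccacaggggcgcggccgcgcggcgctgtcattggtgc
Slc7a7 (chr14:54417698-54417872, minus strand): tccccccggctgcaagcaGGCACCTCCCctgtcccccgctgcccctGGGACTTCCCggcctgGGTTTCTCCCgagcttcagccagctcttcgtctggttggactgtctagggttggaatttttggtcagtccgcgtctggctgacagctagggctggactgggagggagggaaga
Slc1a4 (chr11:20332709-20332883, minus strand): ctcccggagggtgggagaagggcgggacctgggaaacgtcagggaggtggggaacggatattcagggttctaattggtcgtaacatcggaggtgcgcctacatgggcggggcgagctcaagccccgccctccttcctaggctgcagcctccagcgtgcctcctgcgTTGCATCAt

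Slc36a1 held a pair of E-boxes, which begin 31 and 3 bases before the start, and the second spans it. The 50 bases after this start were not found in an annotated transcript of Slc36a1 (GENCODE M21). Those of Slc7a1, Slc7a7 and Slc1a4 were found. Slc7a1 held an AP-1 and an NF-kB match, Slc7a7 3 NF-kB matches, and Slc1a4 a CARE match that begins 4 bases before the start. Over whole windows of 250 bases before to 50 after a start, NF-kB letters were in 15 of 46 member windows (32.6%) and 20.7% of all 32851 windows. CARE was in 3 (6.52%, against 3.97%), the E-box in 3 (6.52%, against 7.15%) and AP-1 in 6 (13%, against 7.81%). Windows of 1 gene can overlap, and these shares are descriptions. The 15 windows with NF-kB letters belong to 11 of the 28 matched members. Of these, Slc1a1, Slc43a1, Slc7a1, Slc7a6 and Slc7a7 rose, Slc1a4 fell, Slc38a4, Slc6a12 and Slc6a13 did not pass, and Slc6a14 and Slc7a15 were not tested. The table matched 28 members and had no entry for Slc1a5, Slc38a1, Slc38a3, Slc43a3, Slc6a6, Slc6a8, Slc7a3, Slc7a4 and Slc7a5, among others. The abundant Slc7a8, Slc3a2 and Slc43a2, and also Slc38a2 and Slc38a9, had an entry but no match to any of these motifs.

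Kupffer cells carried a few of these transcripts at high level and most at low level. Per kilobase of exon, Slc7a8 (LAT2), Slc3a2 and Slc43a2 (LAT4) led in Sham, at 67.5 ± 3.35, 67.3 ± 8.89 and 63.5 ± 13 CPM per kb, and these 3 did not differ beyond their spread. The taurine carrier Slc6a6 (50.7 ± 6.35 CPM per kb) and the light chain Slc7a7 (28.5 ± 3.49) came next, followed by Slc38a10 (17.5 ± 0.372), Slc38a7 (13.2 ± 1.13) and Slc36a1 (12.2 ± 2.49). In CLP the order was Slc3a2 (162 ± 18.1), Slc7a8 (124 ± 29.9), Slc6a6 (88.2 ± 5.75), Slc7a7 (55.5 ± 8.47) and Slc43a2 (31 ± 11.4), and Slc3a2 and Slc7a8 overlapped between libraries, as did Slc7a7 and Slc43a2. Slc36a1 moved from rank 8 to 17 of 38 and Slc7a1 from 23 to 12. With the longest transcript as the length, the same 5 genes led in both groups, Slc43a2 first in Sham.

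**Figure D2:**
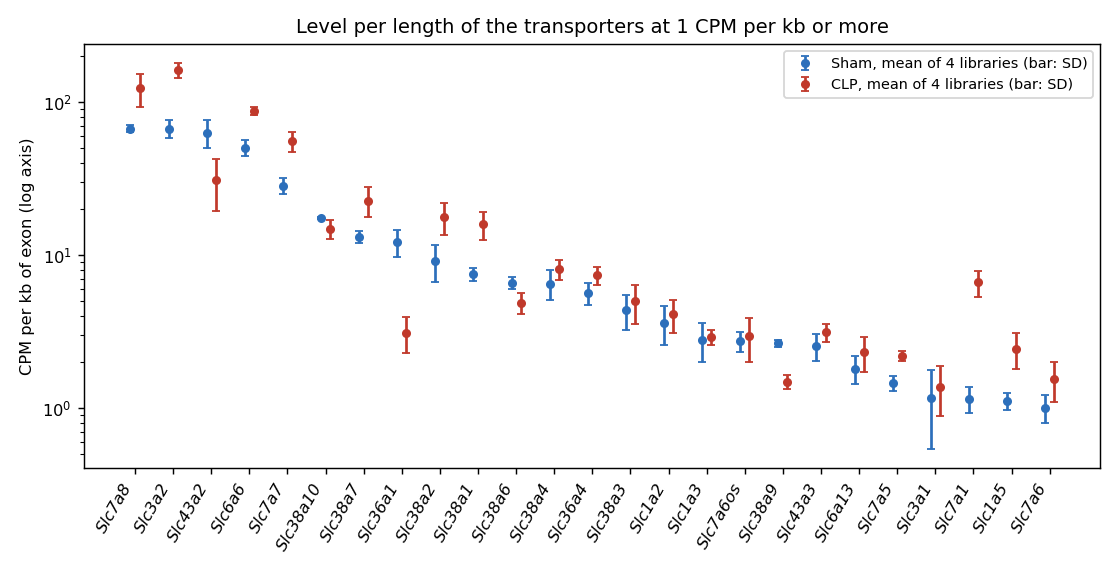
Mean level (CPM per kb of exon, log axis) of the 25 members that reached 1 CPM per kb in either group, ordered by Sham; bars are SD over 4 libraries. Slc7a1 and Slc36a1 show the widest gaps between the groups, in opposite directions.

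Counts were concentrated in few genes. The 5 members with most counts held 70.6% of the members' counts in Sham and 72.5% in CLP, on average over libraries. Slc43a2 took 25.3% of them in Sham and 8.87% in CLP, while Slc6a6 took 17.1% and 21.5%, Slc7a8 13.5% and 17.7%, and Slc3a2 9.46% and 16.5%. The members' summed level was 2182 to 2641 CPM in Sham and 3282 to 3756 CPM in CLP, without overlap. This rests on the scaling: with total counts, an alternative chosen after seeing the data, the sums overlapped and the mean was lower in CLP, at 2792 to 3259 CPM in Sham and 2726 to 3142 CPM in CLP.

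The heavy chains form the membrane anchors of the exchangers. Slc3a2 (ENSMUSG00000010095) was at 566, 647, 492 and 587 CPM after CLP, against 247, 239, 194 and 269 CPM after Sham. Every CLP library was above every Sham library, and the log2 fold change, here and below with its SE, was 1.27 ± 0.14 (edgeR adjusted p = 3.13e-05). Slc3a1, the heavy chain of the kidney and gut cystine exchanger, was at 2.00, 3.77, 4.35 and 2.39 CPM after CLP, against 2.08, 4.69, 2.18 and 1.56 CPM after Sham. Its groups overlapped, and it did not pass (0.25 ± 0.38, edgeR adjusted p = 0.599). Its exons overlap those of Prepl on the other strand, which had 3430 counts beside 602, so that the level of Slc3a1 is uncertain. Slc7a9, the light chain that pairs with Slc3a1, had 0 counts over all libraries, which allows up to 3 (counting error only).

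Among the light chains, Slc7a8 (ENSMUSG00000022180), which exchanges neutral amino acids, was at 824, 634, 526 and 492 CPM after CLP, against 344, 347, 313 and 348 CPM after Sham. CLP replicate 1 was the highest, and the groups did not overlap (log2 fold change 0.87 ± 0.16, edgeR adjusted p = 0.00105). Slc7a7 (ENSMUSG00000000958), y+LAT1, which exports cationic amino acids from macrophages in exchange for neutral ones, was at 203, 189, 201 and 143 CPM after CLP, against 110.1, 90.5, 82.6 and 95.2 CPM after Sham. These groups did not overlap either, and the log2 fold change was 0.96 ± 0.14 (edgeR adjusted p = 0.000223). The exons of Slc7a7 overlap those of Oxa1l on the other strand, which had 6277 counts beside 27960, and the strand setting of the counting was not stated in the labels.

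Slc7a5 (LAT1), the leucine carrier known for its induction in activated T cells, was a minor light chain here. It stood at 8.24, 7.65, 9.02 and 7.61 CPM after CLP, against 5.22, 4.57, 5.9 and 5.87 CPM after Sham, with no overlap and a log2 fold change of 0.59 ± 0.15 (edgeR adjusted p = 0.00695). Per kilobase, Slc7a8 was 47.0 ± 7.23 times Slc7a5 in Sham and 56.6 ± 14 times in CLP. Slc7a6 (y+LAT2), at 7.11 ± 2.08 CPM after CLP and 4.58 ± 0.96 CPM after Sham, passed narrowly (0.63 ± 0.24, edgeR adjusted p = 0.0455). Its groups overlapped, and it missed the threshold in 6 of the 8 fits that left out 1 library. With total-count scaling Slc7a8, Slc7a5 and Slc7a6 did not pass (log2 fold changes 0.32, 0.03 and 0.07), while Slc7a7 did (0.41). Slc7a15 had 6 counts in CLP and 7 in Sham and was not tested.

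Summed per kilobase, the 4 light chains stood at 98.5 ± 5.94 CPM per kb in Sham and 183 ± 35.2 in CLP. Their ratio to Slc3a2 was 1.49, 1.45, 1.64 and 1.32 in the Sham libraries and 1.43, 1.02, 1.21 and 0.875 in the CLP libraries. CLP replicate 1 lay within the Sham range and the other 3 CLP libraries below it. Slc7a8 made up 68.6 ± 1.88% of this sum in Sham and 67.2 ± 4.07% in CLP, and Slc7a7 28.9 ± 2.0% and 30.6 ± 3.76%. Slc7a11, left out by the rule, also pairs with Slc3a2 and is not in the sum.

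**Figure D3:**
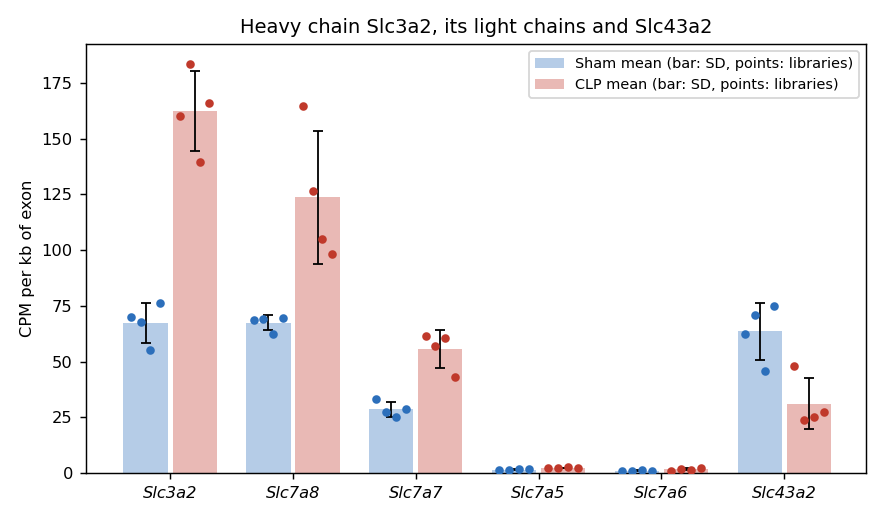
Level per length (CPM per kb of exon) of Slc3a2, its 4 measured light chains and Slc43a2; bars are means, error bars SD, points the 4 libraries of each group. Slc3a2, Slc7a8 and Slc7a7 are higher in CLP, Slc43a2 is lower, and Slc7a5 and Slc7a6 are near the axis in both groups.

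Of the SLC43 carriers, which work without a heavy chain, the abundant Slc43a2 fell. Slc43a2 (ENSMUSG00000038178) was at 482, 237, 251 and 274 CPM after CLP, against 626, 712, 459 and 753 CPM after Sham. CLP replicate 1 was above the lowest Sham library, replicate 3, and the other 3 CLP libraries were below all Sham libraries. The log2 fold change was -1.04 ± 0.24 (edgeR adjusted p = 0.0043), and -1.33 without CLP replicate 1 (edgeR adjusted p = 8.39e-05). Per kilobase the level of Slc7a8 was 1.09 ± 0.196 times that of Slc43a2 in Sham and 4.15 ± 0.871 times in CLP. Slc43a1 (LAT3) rose from very low levels, with 29 counts in Sham and 61 in CLP (1.66 ± 0.51, edgeR adjusted p = 0.0175), and did not pass with total-count scaling (1.12). Slc43a3, which is known to carry purine nucleobases rather than amino acids, did not pass (0.31 ± 0.17, edgeR adjusted p = 0.151), but was past the threshold as higher without CLP replicate 1 (0.40, edgeR adjusted p = 0.0483).

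Slc7a1 (CAT-1), the general importer of arginine, lysine and ornithine, had the smallest adjusted p of the members. Slc7a1 (ENSMUSG00000041313) was at 57.5, 92.2, 73.8 and 82.1 CPM after CLP, against 14.9, 15.3, 12.8 and 9.87 CPM after Sham. All CLP libraries lay far above all Sham libraries, and the log2 fold change was 2.53 ± 0.18 (edgeR adjusted p = 3.99e-06). It lay between 2.42 and 2.65 with any 1 library left out and was 1.98 with total-count scaling. Its relatives were scarce. Slc7a3 (CAT-3), mainly known from the brain, had 22 counts in CLP and 51 in Sham and missed the threshold (-0.62 ± 0.57, edgeR adjusted p = 0.378), although without CLP replicate 4 it was lower (-1.49, edgeR adjusted p = 0.0353). Slc7a4, with 14 and 28 counts, was not tested.

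**Figure D4:**
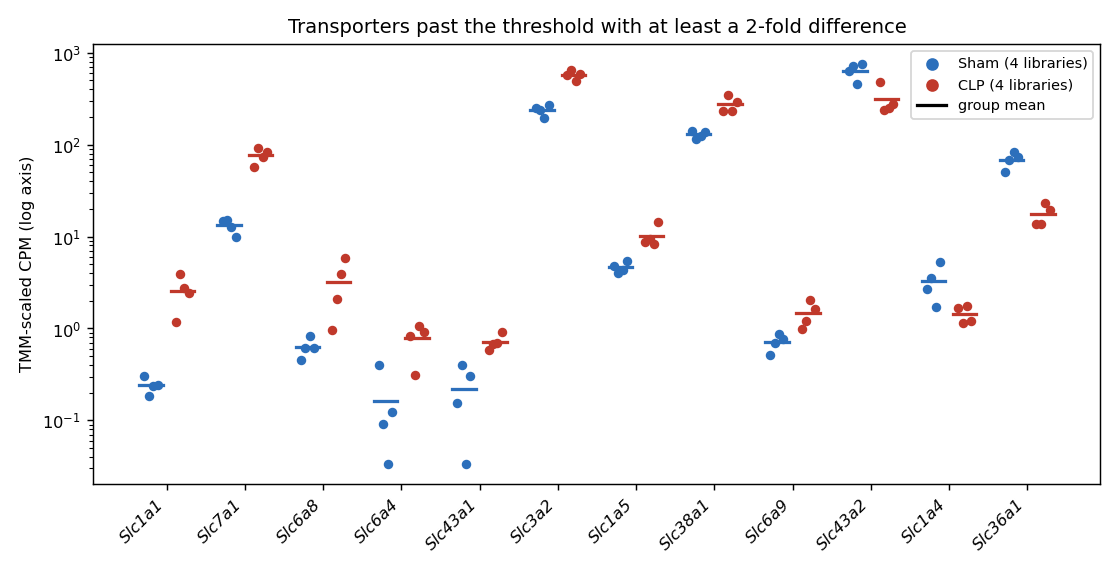
CPM in each of the 8 libraries (log axis) for the 12 members past the threshold with at least a 2-fold difference, ordered by fold change; short lines are group means. Slc7a1, Slc3a2 and Slc36a1 separate completely, while Slc43a2, Slc1a4 and Slc6a4 overlap.

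The SLC1 family split, with 2 of 5 tested genes higher and 1 lower (60% called, beside 54.3% of all genes). Slc1a5 (ASCT2), a sodium-dependent glutamine and neutral amino acid exchanger, was at 8.7, 9.48, 8.38 and 14.3 CPM after CLP, against 4.77, 4.05, 4.33 and 5.38 CPM after Sham. The groups did not overlap, and it rose (1.14 ± 0.20, edgeR adjusted p = 0.000765). Slc1a4 (ASCT1), the serine and alanine exchanger of the same subgroup, was at 1.66, 1.15, 1.74 and 1.22 CPM after CLP, against 2.72, 3.54, 1.71 and 5.29 CPM after Sham. It fell (-1.19 ± 0.34, edgeR adjusted p = 0.0133), but Sham replicate 3 overlapped CLP, and without Sham replicate 4 it did not pass (-0.87, edgeR adjusted p = 0.0507). These 2 exchangers of like substrates thus lay on opposite sides of 0, with either scaling.

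Of the glutamate carriers, Slc1a1 (EAAT3), which also takes up cysteine, had the largest fold change of all members. It was at 1.17, 3.88, 2.75 and 2.44 CPM after CLP, against 0.306, 0.183, 0.235 and 0.244 CPM after Sham. All CLP libraries were above all Sham libraries (3.37 ± 0.41, edgeR adjusted p = 6.59e-05), from 31 counts in Sham to 212 in CLP. Exons of 4430402I18Rik, which had 48 counts beside 243, overlap those of Slc1a1 on the other strand. Far more abundant were Slc1a2 (GLT-1), at 69.8, 52.7, 54.6 and 37.9 CPM after CLP, against 59.6, 45.2, 29.3 and 55.6 CPM after Sham, and Slc1a3 (GLAST), at 26, 23.5, 28.2 and 21.5 CPM after CLP, against 31.7, 26.1, 15.9 and 21.6 CPM after Sham. Neither passed (0.18 ± 0.23 and 0.06 ± 0.19, edgeR adjusted p = 0.529 and 0.82), and Sham replicate 3 was the lowest of the Sham libraries for both. With total-count scaling Slc1a3 was lower (-0.49, edgeR adjusted p = 0.0313).

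SLC38 carriers moved in both directions: 3 of 8 rose, 2 fell and 3 did not pass. The called share was 62.5%, beside 54.3% of all genes, which also moved in both directions (24.9% higher and 29.5% lower). Slc38a1 (SNAT1), a glutamine importer of the plasma membrane, was at 229.7, 348, 229.6 and 291 CPM after CLP, against 141, 114, 125 and 137 CPM after Sham. Its groups did not overlap (1.09 ± 0.15, edgeR adjusted p = 0.00018). Slc38a2 (SNAT2), known as the carrier that cells raise in amino acid shortage, was at 105, 189, 166 and 166 CPM after CLP, against 76.1, 73.6, 112 and 62.2 CPM after Sham. CLP replicate 1 was below Sham replicate 3, and the rise (0.95 ± 0.21, edgeR adjusted p = 0.00351) was lost when total counts set the scale (0.38). Slc38a1, Slc38a2 and Slc38a4 are neighbours in RefSeq, on chromosome 15.

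Members known from lysosomes differed in direction. Slc38a7 (SNAT7), which releases glutamine from lysosomes, was at 63.3, 102, 111 and 102 CPM after CLP, against 57.6, 56.9, 56.5 and 47.7 CPM after Sham. All CLP libraries were above all Sham libraries (0.79 ± 0.16, edgeR adjusted p = 0.00216), but with total-count scaling it did not pass (0.23). Slc38a9, the arginine sensor that signals to mTORC1 from the lysosome, was at 23, 26, 22.3 and 28.1 CPM after CLP, against 42, 43.5, 43.8 and 47.7 CPM after Sham. All CLP values were below all Sham values (-0.83 ± 0.11, edgeR adjusted p = 9.74e-05). Slc36a1 (PAT1; ENSMUSG00000020261), which moves small neutral amino acids with protons out of lysosomes, was at 13.7, 13.7, 23.2 and 19.2 CPM after CLP, against 49.8, 68, 83.3 and 72.9 CPM after Sham. The groups lay well apart (-1.97 ± 0.21, edgeR adjusted p = 3.09e-05), and the falls of Slc36a1 and Slc38a9 were past the threshold in every alternative tried.

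The other SLC36 member of some abundance, Slc36a4 (PAT4), was at 52.1, 49.1, 38.8 and 53.4 CPM after CLP, against 40.7, 37.4, 28.2 and 41.9 CPM after Sham. It passed by a small margin as higher (0.38 ± 0.15, edgeR adjusted p = 0.0487), missed the threshold in 7 of 8 fits that left out 1 library (0.35 without CLP replicate 1, edgeR adjusted p = 0.073), with limma voom, with the GC content offset and without the count filter, and turned to -0.17 with total-count scaling. Its level per kilobase was 0.491 ± 0.169 times that of Slc36a1 in Sham and 2.55 ± 0.83 times in CLP, below 1 in each Sham library and above 1 in each CLP library. Slc36a3 had 10 counts in CLP and 7 in Sham and was not tested.

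Slc38a6, a little-studied member, fell from 51.2 ± 4.61 to 38.1 ± 6.14 CPM with no overlap (-0.43 ± 0.13, edgeR adjusted p = 0.0182). Slc38a10, related to the glutamine carriers, was at 115, 88.8, 90.3 and 86.4 CPM after CLP, against 114, 109, 112 and 114 CPM after Sham. The Sham libraries lay close together, CLP replicate 1 was level with them, and the gene did not pass (-0.24 ± 0.11, edgeR adjusted p = 0.0919). Without CLP replicate 1 it was lower (-0.34, edgeR adjusted p = 0.00391), as it was with total-count scaling (-0.79). Other settings weakened the difference, to -0.04 with the GC content offset (edgeR adjusted p = 0.746) and -0.18 with DESeq2 (adjusted p = 0.209).

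SLC6 members carry osmolytes, creatine and transmitters. The taurine carrier Slc6a6 (TauT; ENSMUSG00000030096), whose substrate protects cells against osmotic and oxidant stress, was at 789.8, 697, 786 and 711 CPM after CLP, against 464, 479, 362 and 408 CPM after Sham. It rose with no overlap (0.80 ± 0.12, edgeR adjusted p = 0.000328), and fell short of the threshold with total-count scaling (0.25, edgeR adjusted p = 0.0578). The creatine carrier Slc6a8 was at 0.957, 2.09, 3.89 and 5.9 CPM after CLP, against 0.458, 0.61, 0.838 and 0.611 CPM after Sham. It varied widely within CLP, lowest in replicate 1, yet lay above Sham in all 4 libraries (2.34 ± 0.50, edgeR adjusted p = 0.00261). The glycine carrier Slc6a9 (GlyT1) was at 0.999, 1.2, 2.06 and 1.61 CPM after CLP, against 0.519, 0.701, 0.872 and 0.764 CPM after Sham. It rose (1.04 ± 0.31, edgeR adjusted p = 0.0166), did not pass without CLP replicate 3 (0.83, edgeR adjusted p = 0.0589) or with total-count scaling (0.48), and its exons overlap those of B4galt2 and Ccdc24 on the other strand.

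Slc6a4, the serotonin carrier by which platelets load serotonin, is no amino acid carrier but matches the symbol rule. It had 68 counts in CLP and 21 in Sham, at 0.832, 0.314, 1.05 and 0.927 CPM after CLP, against 0.397, 0.0914, 0.0335 and 0.122 CPM after Sham (2.24 ± 0.60, edgeR adjusted p = 0.00907). Sham replicate 1 held 13 of the 21 Sham counts, and without that library the log2 fold change was 3.18. Of 8 platelet markers 7 were tested and all rose, their sum was highest among Sham libraries in replicate 1 as well (28.3 CPM), and Pf4 was the most abundant. Within CLP the order differed: the platelet sum was lowest in replicate 3 (124 CPM, against 185 to 199 CPM), where Slc6a4 was highest, and Slc6a4 was lowest in replicate 2, where the platelet sum was 185 CPM. The part of platelets in the Slc6a4 value was not tested.

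Several members are known above all from hepatocytes, and none of these passed with all 8 libraries: the glutamine carrier Slc38a3 (0.19 ± 0.23, edgeR adjusted p = 0.508), the neutral carrier Slc38a4 (0.31 ± 0.17, edgeR adjusted p = 0.143), the GABA and taurine carrier Slc6a13 (0.36 ± 0.24, edgeR adjusted p = 0.222) and the betaine carrier Slc6a12 (0.57 ± 0.35, edgeR adjusted p = 0.184). Slc38a3 was at 16.9, 25.3, 35.3 and 27.5 CPM after CLP, against 19, 32, 20.2 and 21 CPM after Sham, and Slc38a4 at 33.6, 41.3, 29 and 33.9 CPM after CLP, against 25, 35.4, 21 and 29.8 CPM after Sham. Slc6a13 was past the threshold as higher without CLP replicate 1 (0.52, edgeR adjusted p = 0.0372), and Slc38a4 without Sham replicate 2 (0.46, edgeR adjusted p = 0.046). Sham replicate 2 was the highest Sham library for all 4, and for the sum of 12 hepatocyte markers. That sum was 3899, 5467, 4663 and 4284 CPM after CLP and 3622, 4123, 2921 and 3132 CPM after Sham. Within CLP the hepatocyte sum, Slc38a4, Slc6a13 and Slc6a12 were highest in replicate 2, but Slc38a3 was highest in replicate 3. Albumin (Alb), the most abundant of these markers, was at 2263 ± 354 CPM after CLP and 1710.3 ± 307 CPM after Sham, so transcripts of hepatocytes were present in all 8 libraries. Of the 12 markers 2 passed as higher, and their part in these carriers' values was not tested.

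**Figure D5:**
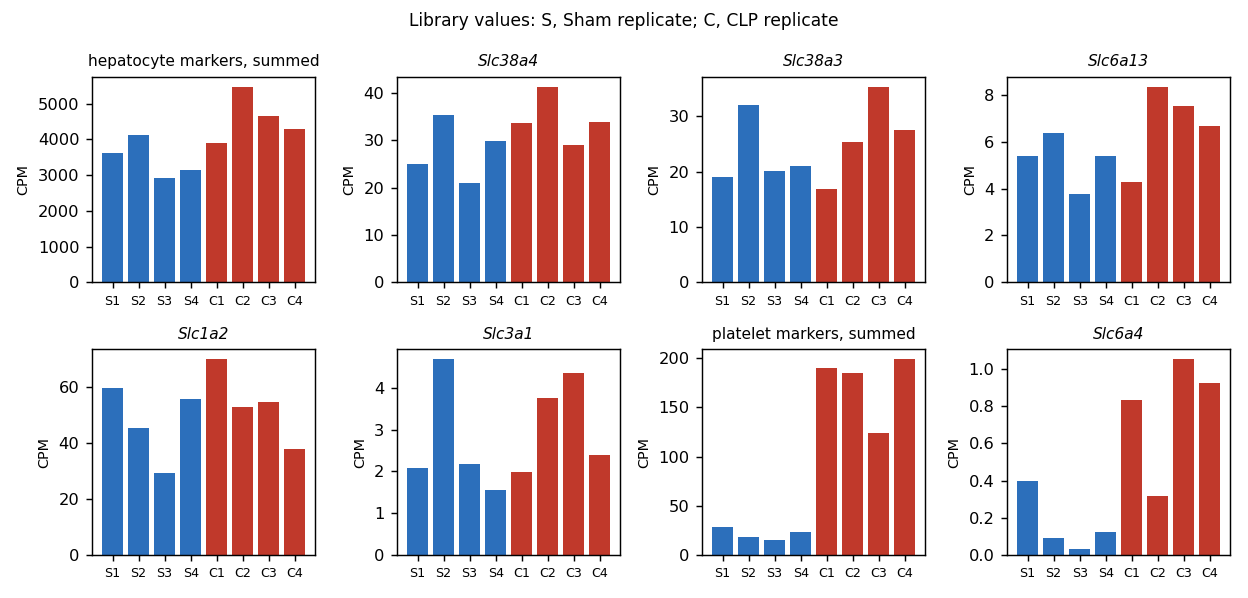
CPM in each library (S, Sham; C, CLP; replicates 1 to 4) of summed hepatocyte markers beside 5 members, and of summed platelet markers beside Slc6a4. Sham replicate 2 is the highest Sham bar for the hepatocyte sum, Slc38a4, Slc38a3, Slc6a13 and Slc3a1, whereas Sham replicate 1 is the highest for Slc1a2. Platelet markers are at 124 to 199 CPM in CLP and 15.5 to 28.3 CPM in Sham.

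Of the remaining members, Slc6a14, a carrier of neutral and cationic amino acids, had 7 counts in CLP and 3 in Sham and was not tested. Slc7a6os, a neighbour of Slc7a6 whose product is a nuclear protein and no carrier, did not pass (0.10 ± 0.24, edgeR adjusted p = 0.729).

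Carriers of amino acids and peptides outside these families were also mixed: of 13 listed, 9 were tested, 2 rose and 4 fell (median log2 fold change -0.32). That is 66.7% of those tested, beside 54.3% of all genes. Slc15a3, a histidine and peptide carrier of endolysosomes, rose from 631 ± 90.0 to 1494 ± 43.1 CPM (1.24 ± 0.13), and the aromatic amino acid carrier Slc16a10 was the other rise (0.87 ± 0.18). The falls were in the endolysosomal Slc15a4 (-0.83 ± 0.14), the lysosomal sialic acid and acidic amino acid carrier Slc17a5 (-1.10 ± 0.16), the lysosomal cysteine carrier Mfsd12 (-0.91 ± 0.18) and the lysosomal cationic carrier Pqlc2 (-0.82 ± 0.28). The edgeR adjusted p of these 6 genes ranged from 2.39e-05 to 0.0315.

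Genes of the amino acid response governed by ATF4 split too, with 8 higher and 3 lower of 19 tested (25 listed, median 0.53). In this list 57.9% of the tested genes were called, beside 54.3% of all genes. Atf4 itself rose from 98.8 ± 14.8 to 321 ± 23.3 CPM (1.70 ± 0.13, edgeR adjusted p = 5.94e-06) and its target Nupr1 by 2.7 ± 0.22 on the log2 scale, whereas the ATF4 partner Cebpg fell from 157 ± 17.2 to 47.8 ± 2.96 CPM (-1.71 ± 0.11). Asparagine synthetase (Asns), a textbook ATF4 target, was too low to test, at 0.623 ± 0.432 CPM after CLP and 0.171 ± 0.0929 CPM after Sham, and is named here with its values known. Without CLP replicate 1, 5 genes of the list were lower.

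In the lysosomal sensing machinery of mTORC1, 9 of 32 tested genes rose and 8 fell (33 listed, median -0.02). Calls made up 53.1% of the tested genes, close to the 54.3% of all genes. Sesn1, a leucine-linked brake on mTORC1, fell from 48.8 ± 8.87 to 4.87 ± 0.94 CPM (-3.32 ± 0.18) and the mTOR complex subunit Mlst8 from 15.2 ± 1.32 to 4.29 ± 0.441 CPM (-1.82 ± 0.14). Lamtor3, a Ragulator scaffold subunit, and Fnip2, a folliculin partner, rose by 1.33 ± 0.14 and 2.56 ± 0.28 on the log2 scale. The edgeR adjusted p of these 4 genes ranged from 1.14e-06 to 3.79e-05. With total-count scaling 3 genes of the list were higher and 21 lower.

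Of the enzymes that use glutamine and branched-chain amino acids, 3 of 15 tested were higher and 7 lower (16 listed, median -0.29). The called share was 66.7%, beside 54.3% of all genes. Glutamine synthetase (Glul) fell from 1173 ± 246 to 506 ± 77 CPM (-1.21 ± 0.18). The aspartate transaminase Got1 rose by 1.91 ± 0.35 and the branched-chain dehydrogenase subunit Dbt fell (log2 fold change -1.04 ± 0.18). For these 3 genes the edgeR adjusted p lay between 0.000212 and 0.000968. Of 20 cytosolic aminoacyl-tRNA synthetases, which load amino acids onto tRNA, 4 rose (Rars, Eprs, Farsa and Aars, by 0.36 to 0.67 on the log2 scale) and 1, Sars, was lower (median 0.04). Their called share was 25%, beside 54.3% of all genes. With the GC offset, and in 5 of the 8 fits that left out 1 library, edgeR had 0 synthetases lower, and 1 at an unadjusted p under 0.05. The count was 4 without CLP replicate 1, and 1 with DESeq2 and with limma voom. With total-count scaling edgeR had 0 synthetases higher, also at an unadjusted p under 0.05, and 15 lower. DESeq2 with its own scaling had 5 higher, and limma voom, which used TMM factors as the main fit did, had 4. The share of all genes called in each direction, given above, is the background to the counts of these lists as well.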

How the data were processed

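RNA of FACS-sorted Kupffer cells was sequenced from 8 libraries (TruSeq stranded, per the labels' protocols). The deposited values are raw counts per gene; the submitters' processing notes list STAR 2.7.10b, featureCounts, DESeq2 and mm39. Strand setting and annotation release: not given in the sources used here. Gene symbols and exon lengths came from GENCODE M21 (GRCm38), matching 52081 of 55414 rows (99.8% of counts), so the only coordinates printed are those of the RefSeq promoter windows (GRCm38.p6). Counts were tested with edgeR 4.0.16 in R 4.3.3 (filterByExpr, TMM, robust quasi-likelihood F-test, Benjamini-Hochberg over 14655 genes, threshold 0.05), with SE as the absolute log2 fold change over the square root of F. Alternatives were other scalings and filters, a GC offset, DESeq2 1.42.0, limma 3.58.1 voom, a replicate block and leaving out each library. The scripts were tested on simulated data in which few genes changed, which does not bear on the choice of scaling. Values in every library are given for called members of at least 2-fold that average at least 1 CPM in the higher group, the 8 members highest per length and both heavy chains, and from each list up to 4 genes with the smallest p are named; other members shown in full, and Asns, Slc16a10 and Pqlc2, were added with their values known. Single values of 1 tested member and 1 list gene, which stay in the fit and the counts, are not reported here. Members and lists were chosen with earlier results of these data known. No replicate pair agreed within sampling noise (chi-square per degree of freedom 19.8 to 122).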

Additional observations from a re-analysis of the deposited data

Results flagged for a closer look

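In 5 of 66 groups of 4 libraries (33 tested members in CLP and in Sham), 1 library lay far from the other 3 by Dixon's gap test, which chance does in about 1 of 20 groups. CLP replicate 1 was the library in 2 of them. Slc43a2 was at 482 CPM there and at 237 to 274 CPM in the other CLP libraries. Slc38a10 was at 115 CPM against 86.4 to 90.3 CPM. Among Sham libraries, Slc38a3 was at 32.0 CPM in replicate 2 and at 19 to 21 CPM in the others. Slc38a7 was at 47.7 CPM in Sham replicate 4 against 56.5 to 57.6 CPM, and Slc7a8 at 313 CPM in Sham replicate 3 against 344 to 348 CPM.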

How the results depend on the processing

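Total-count scaling moved the most results. It gave 1715 higher and 8292 lower genes in all, 8 higher members, 9 lower ATF4 genes, 3 higher and 21 lower mTORC1 genes, 0 higher and 15 lower tRNA synthetases, 1 higher carrier outside the families and 12 lower glutamine and branched-chain enzymes. It also turned the sign of Slc1a2 (-0.36), Slc1a3 (-0.49), Slc36a4 (-0.17), Slc38a3 (-0.36), Slc38a4 (-0.24), Slc6a13 (-0.19), Slc3a1 (-0.30), Slc7a6os (-0.46) and Slc43a3 (-0.25), and of the difference in the members' summed level, CLP minus Sham (-162 CPM in place of 970.3 CPM, chosen after seeing the data). With the GC offset 0 tRNA synthetases were lower (edgeR, 1 at an unadjusted p under 0.05, and DESeq2 and limma voom had 1 each). With 1 library left out, 0 to 4 tRNA synthetases were lower, and up to 5 ATF4 genes. Slc1a3 then ranged from -0.096 to 0.24 and Slc7a6os from -0.0093 to 0.32. The causes were not tested.

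Replicate numbers did not pair the libraries: same-number correlations were -0.12 to 0.17, and 0 of 4 CLP libraries correlated best with their own number. With the replicate block, 3491 genes were higher and 4303 lower, and 17 and 5 members, with Slc7a6 missing the threshold (edgeR adjusted p = 0.0605) and Slc38a4 passing it (0.0415).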
